A study of Mus musculus with 2 samples.

Results

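The granule genes described here are 10 genes whose products are stored in, or act for, the granules of neutrophils, basophils and mast cells. They are *Ctsg*, *Mpo*, *Elane*, *Prtn3*, *Ms4a3*, *Hdc*, *Mcpt8*, *Cpa3*, *Prss34* and *Srgn*. They were taken as the array probe sets whose platform annotation gives exactly 1 of these symbols. All 10 were found, with 1 probe set each, among the 19938 genes that have a value. The genes were chosen by their lower values in the *Mafk*-Tg array, so their direction is a description and not a test.

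The transgenic embryos were E15.5 *Mafk*-Tg mice, in which a FLAG-tagged mouse *Mafk* cDNA is driven by the rat insulin I promoter, which is active in β-cells. The control embryos were wild type embryos of the same age, and both groups were kept on the ICR background. Affymetrix mouse gene arrays were hybridised with RNA of whole pancreata, and 1 *Mafk*-Tg and 1 WT array are described. The labels give 3 embryos per genotype, and whether an array holds their pooled RNA is not stated. There are thus no replicate arrays, and no test was run. By their sex-linked genes the arrays also differ in sex, as given further on. Every difference is given on the log2 scale as *Mafk*-Tg minus WT. A gene was counted as lower or higher when the arrays differed by at least 1.2-fold, the cutoff of the study, which is 0.26 as a log2 difference.

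Granules are membrane-bound stores that myeloid cells fill while they mature and empty on activation. Neutrophil precursors make the primary granules first, at the promyelocyte stage, and fill them with myeloperoxidase and the serine proteases cathepsin G, neutrophil elastase and proteinase 3. The later granules, with lactoferrin, cathelicidin and gelatinase, follow as the cell matures. Mast cells and basophils store histamine and their own proteases on the proteoglycan serglycin. In the mouse fetus such cells are made mainly in the liver and reach other organs through the blood.

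The sequences just before the RefSeq start of 6 of these genes are shown because the 4 genes of neutrophil primary granules share a motif there that none of the other 6 members carries. Each window covers up to 250 bases upstream of the start and stops before the annotated gene (RefSeq, GRCm38.p6). In the first 4 windows the capitals mark AGGAAGT, a sequence of the type bound by the myeloid ETS factor PU.1. In the last 2, of a mast cell gene and a basophil gene, they mark AGATAA, a sequence of the type bound by GATA factors. The windows lie at chr14:56102575-56102824 on the minus strand for *Ctsg*, chr11:87793534-87793783 on the plus strand for *Mpo*, chr10:79886062-79886311 on the plus strand for *Elane*, chr10:79879417-79879666 on the plus strand for *Prtn3*, chr3:20242210-20242431 on the minus strand for *Cpa3* and chr17:25298144-25298393 on the plus strand for *Prss34*.
Ctsg: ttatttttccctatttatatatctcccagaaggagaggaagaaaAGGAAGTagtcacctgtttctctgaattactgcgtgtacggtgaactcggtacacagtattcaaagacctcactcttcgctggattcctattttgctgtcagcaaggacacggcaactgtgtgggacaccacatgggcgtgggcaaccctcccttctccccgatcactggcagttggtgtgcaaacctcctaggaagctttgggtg
Mpo: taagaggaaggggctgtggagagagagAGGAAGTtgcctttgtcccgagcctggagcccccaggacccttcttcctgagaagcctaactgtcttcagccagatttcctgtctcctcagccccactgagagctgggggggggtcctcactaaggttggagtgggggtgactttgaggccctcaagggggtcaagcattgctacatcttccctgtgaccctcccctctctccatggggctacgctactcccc
Elane: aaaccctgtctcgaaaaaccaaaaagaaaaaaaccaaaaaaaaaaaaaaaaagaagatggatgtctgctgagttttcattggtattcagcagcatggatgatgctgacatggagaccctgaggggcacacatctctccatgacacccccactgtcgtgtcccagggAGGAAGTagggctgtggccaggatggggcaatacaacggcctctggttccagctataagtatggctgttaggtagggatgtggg
Prtn3: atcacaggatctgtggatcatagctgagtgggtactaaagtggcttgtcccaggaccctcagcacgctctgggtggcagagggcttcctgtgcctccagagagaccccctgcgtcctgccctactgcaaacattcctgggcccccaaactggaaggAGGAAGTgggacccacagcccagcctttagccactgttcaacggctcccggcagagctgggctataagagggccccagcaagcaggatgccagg
Cpa3: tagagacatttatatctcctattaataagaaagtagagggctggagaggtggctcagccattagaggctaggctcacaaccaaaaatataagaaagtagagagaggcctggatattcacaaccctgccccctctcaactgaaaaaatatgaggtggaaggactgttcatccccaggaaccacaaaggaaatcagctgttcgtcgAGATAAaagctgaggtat
Prss34: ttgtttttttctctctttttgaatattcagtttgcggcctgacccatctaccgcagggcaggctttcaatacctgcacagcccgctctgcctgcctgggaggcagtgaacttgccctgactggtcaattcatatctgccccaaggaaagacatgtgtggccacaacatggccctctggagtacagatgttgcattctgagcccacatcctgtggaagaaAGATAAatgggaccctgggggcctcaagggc

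The motifs were chosen after the windows had been read, so nothing is read from their counts beside all windows. Both strands were searched over the full 250 bases before each start. AGGAAGT was found in 4 of 10 members, against 7.69% of the 32851 windows of the RefSeq table. Its first base lies at -84 in *Elane* and -94 in *Prtn3*, counted from the start, and at -206 in *Ctsg* and -223 in *Mpo*. AGATAA was found in 2 of 10 members, against 9.99% of all windows, with its first base at -46 in *Cpa3* and -31 in *Prss34*. The *Cpa3* position is counted from the end of the full 250 bases, of which only the 222 outside the annotated gene are shown. The shorter GAGGAA, which overlaps AGGAAGT in *Mpo*, *Elane* and *Prtn3*, was found in 5 of 10 members and in 23.3% of all windows. TGTGGT, of the type bound by RUNX factors, was found in 4 of 10 members and 14% of windows. TTGCNNAA, of the type bound by C/EBP factors, was found in 0 of 10 members and 9.56% of windows. TGCTGA, which is part of the MAF recognition element, was found in 4 of 10 members, *Ctsg*, *Elane*, *Prtn3* and *Ms4a3*, and in 16.1% of windows. A match is a match of letters, and binding was not measured.

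All 10 granule genes had a lower value in *Mafk*-Tg, by at least 1.2-fold. Among all 19938 genes, 10.5% were lower by that much and 7.96% higher, and among those whose mean value was at or above the median over all probe sets 5.87% were lower. The genes were chosen for being lower, so nothing is read from this count. The differences of the 10 genes ran from -1.25 for *Ctsg* to -0.53 for *Prss34* on the log2 scale, with a median of -0.82, beside a median of -0.01 over all genes. At 1.5-fold, 8 of 10 were lower, and 1.27% of all genes were. The 2 genes that did not reach 1.5-fold were *Cpa3* and *Prss34*. In RNA of a whole organ, fewer cells of a type and less RNA per cell cannot be told apart.

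**Figure D1:**
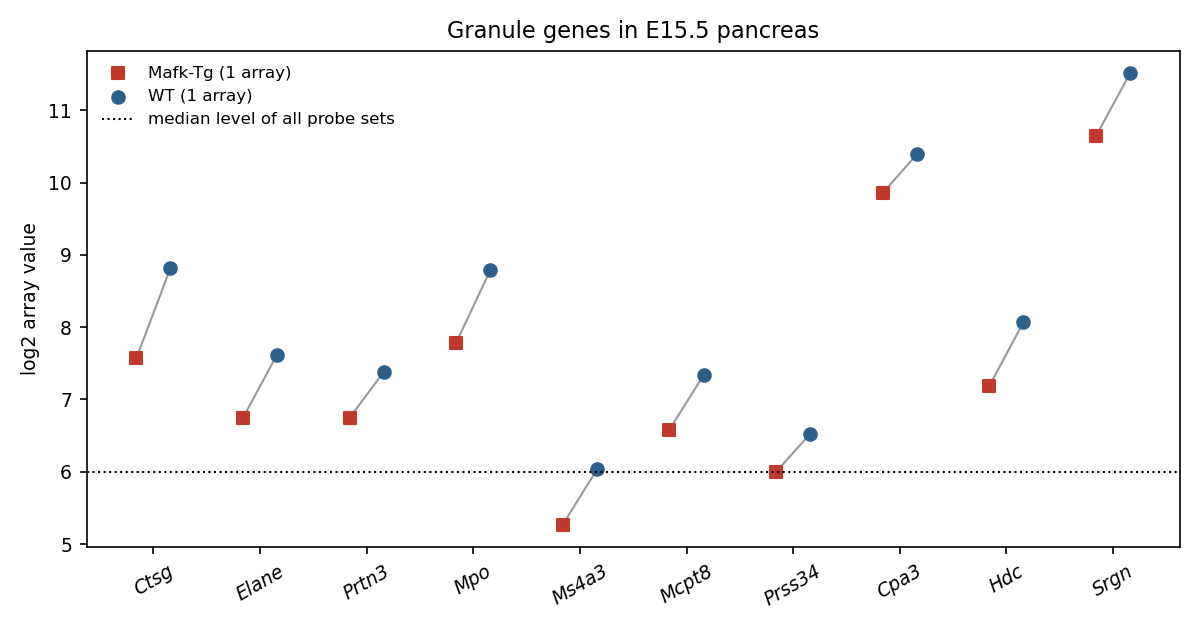
Log2 array values of the 10 granule genes in *Mafk*-Tg (squares) and WT (circles), 1 array per genotype, with grey lines between the pair of values of a gene and the median over all probe sets dotted. Each *Mafk*-Tg value lies below its WT value, with a difference of -1.25 for *Ctsg* and -0.53 for *Prss34*, and values of different genes are not comparable in height.

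The primary granule proteases differed by unequal amounts. *Ctsg*, which encodes cathepsin G, a serine protease that cuts after aromatic and other residues, had a log2 value of 7.57 in *Mafk*-Tg and 8.82 in WT. Its *Mafk*-Tg signal was 0.42 of the WT signal on the linear scale, and 10 of the 19938 genes had a lower difference. *Elane*, which encodes neutrophil elastase, had 6.74 in *Mafk*-Tg and 7.62 in WT, a ratio of 0.54. *Prtn3*, which encodes proteinase 3, had 6.75 in *Mafk*-Tg and 7.38 in WT, a ratio of 0.64. *Elane* and *Prtn3* are adjacent genes on chromosome 10, yet their differences were -0.88 and -0.63. Whether these 2 values differ beyond array error could not be tested.

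*Mpo* encodes myeloperoxidase, the haem enzyme that makes hypochlorous acid from hydrogen peroxide and chloride. It had a log2 value of 7.79 in *Mafk*-Tg and 8.79 in WT, a difference of -1.001, so its *Mafk*-Tg signal was 0.50 of that in WT. *Ms4a3* encodes a membrane protein of granulocyte and monocyte progenitors and had 5.27 in *Mafk*-Tg and 6.03 in WT, a difference of -0.76. It was the only member whose mean over the arrays lay below the median over all probe sets, called the median level here, where signals lie closer to background. The other 9 lay above it.

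The basophil and mast cell genes were lower as well. *Mcpt8*, which encodes a serine protease of mouse basophils, had a log2 value of 6.58 in *Mafk*-Tg and 7.33 in WT, a difference of -0.75. *Prss34*, a tryptase-like protease gene of basophils and mast cells, had 5.998 in *Mafk*-Tg and 6.53 in WT, a difference of -0.53. *Cpa3* encodes carboxypeptidase A3, the zinc protease of mast cell granules, and had 9.85 in *Mafk*-Tg and 10.39 in WT, a difference of -0.54. These 2 differences were the smallest in size of the 10.

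*Hdc* encodes histidine decarboxylase, the enzyme that makes histamine, and had a log2 value of 7.19 in *Mafk*-Tg and 8.07 in WT, a ratio of 0.54. *Srgn* encodes serglycin, the proteoglycan core protein that holds proteases and histamine in granules. It had 10.64 in *Mafk*-Tg and 11.51 in WT, a ratio of 0.55. Serglycin is made by most blood cells, by platelets and by endothelial cells, so its value is not that of 1 cell type. *Hdc*, *Elane* and *Srgn* lay close together, at -0.88, -0.88 and -0.87.

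The arrays hold no replicate error. As a description of the scatter at the members' levels, among the 1000 genes nearest in level to each member, the log2 difference had a robust SD of 0.13 to 0.21. It was 0.15 around *Ctsg*, 0.13 around *Srgn* and *Cpa3*, 0.19 around *Prss34* and 0.21 around *Ms4a3*. This spread is taken across genes within the same 2 arrays, does not stand in for variation between embryos, and supports nothing about members that were selected on these differences.

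**Figure D2:**
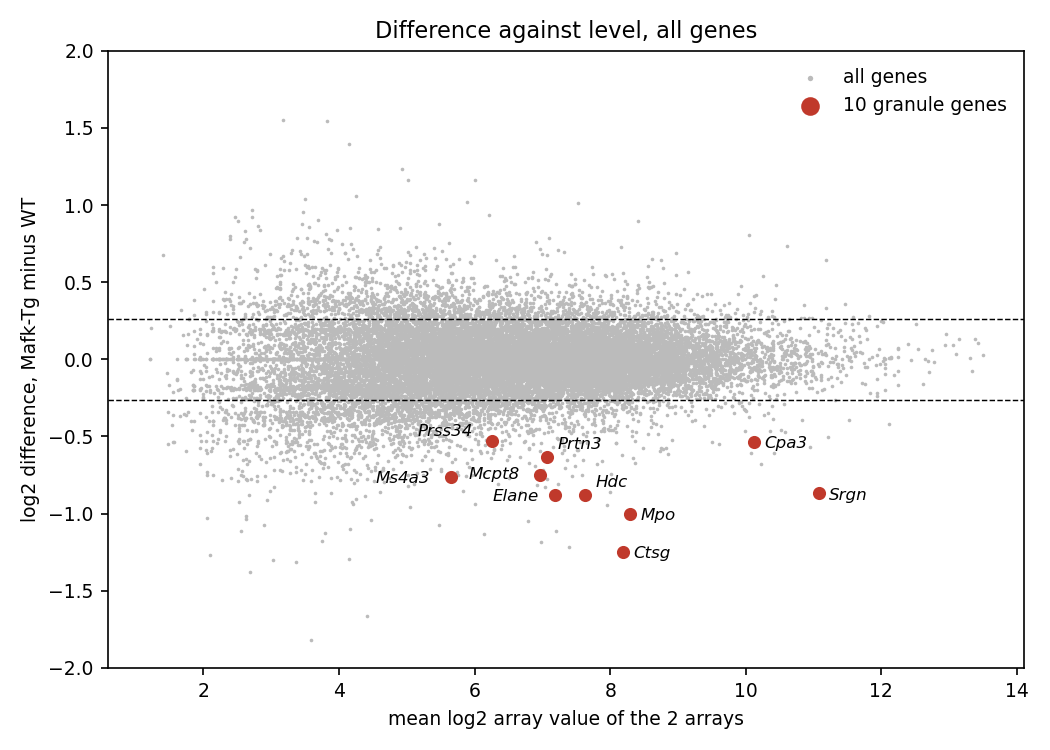
Log2 difference, *Mafk*-Tg minus WT, against the mean log2 value of the 2 arrays for each gene (grey) and for the 10 granule genes (red), with dashed lines at 1.2-fold. The granule genes lie below the lower line at -0.26, from *Ms4a3* at a level of 5.65 to *Srgn* at 11.08, and 5 genes lie outside the axis, beyond 2 in size.

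Other genes of primary granules and of the handling of their proteases were lower less uniformly than the members, which were chosen for being lower. Nothing is read from that contrast, here or for the lists below. Of 14 such genes measured, 5 were at least 1.2-fold lower and 0 higher, with a median difference of -0.18. Among all genes, 10.5% were lower and 7.96% higher. *Lyz2*, the lysozyme gene of myeloid cells, had a log2 value of 9.88 in *Mafk*-Tg and 10.56 in WT, a difference of -0.68. *Ctsc*, the gene of the dipeptidyl peptidase that activates the granule serine proteases, had -0.33 and *Igsf6* had -0.36. The other 2 that were lower, the cystatin gene *Cst7* at -0.73 and the lysozyme gene *Lyz1* at -0.36, had mean levels below the median. *Serpinb1a*, an inhibitor of elastase, cathepsin G and proteinase 3, had 9.17 in *Mafk*-Tg and 9.13 in WT. The difference of *Serpinb1a* was thus 0.04, while *Ctsc* and *Cst7*, whose family is one of protease inhibitors, were lower by more than 1.2-fold. No contrast between activators and inhibitors is read from these few genes. In RNA of a whole organ, none of these values can be assigned to a given cell type.

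The genes of later neutrophil granules and of mature neutrophils had smaller differences in most cases than the members, which were chosen for being lower. Of 23 measured, 9 were at least 1.2-fold lower and 0 higher, with a median of -0.20, beside 10.5% of all genes that were lower. *Ngp*, the gene of a neutrophil granule protein, had a log2 value of 9.49 in *Mafk*-Tg and 9.62 in WT. *Ltf*, which encodes lactoferrin, had 7.12 in *Mafk*-Tg and 7.10 in WT. *Camp*, which encodes cathelicidin, had 6.87 in *Mafk*-Tg and 7.07 in WT. *Mmp9*, which encodes gelatinase B, was lower, with 6.84 in *Mafk*-Tg and 7.21 in WT. The lowest difference of the list was that of the chitinase-like gene *Chil3*, -0.96, at a mean level below the median. *Lcn2* had a difference of -0.08 and *S100a8* one of -0.17, both under 1.2-fold. The calcium-binding protein gene *S100a9*, whose product pairs with that of *S100a8*, had -0.64. Also lower were the haptoglobin gene *Hp* at -0.86, *Cybb*, which encodes a subunit of the phagocyte oxidase, at -0.54 and the collagenase gene *Mmp8* at -0.41. Haptoglobin is a liver protein too, and the values of hepatocyte genes are given further on.

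Mast cell and basophil genes outside the 10 gave mixed values, many of them low on the scale. Beside the counts that follow, 10.5% of all genes were lower and 7.96% higher. Of 17 mast cell genes measured, 7 were at least 1.2-fold lower and 2 higher, with a median of -0.20, and only 7 of the 17 lay at or above the median level. *Fcer1g*, the signalling chain of Fc receptors, which many leukocytes express, had -0.58. *Cma1*, a chymase gene, had a log2 value of 5.78 in *Mafk*-Tg and 6.33 in WT, and the tryptase gene *Tpsb2* had 6.34 in *Mafk*-Tg and 6.79 in WT. *Ms4a2* and *Fcer1a*, chains of the IgE receptor, had -0.62 and -0.39, below the median level in both arrays. *Kit*, the stem cell factor receptor, had -0.19 and *Rab27b*, a gene of granule release, had 0.31. The other gene that was higher was *Mcpt2* at 0.53, with 3.96 in *Mafk*-Tg and 3.43 in WT, far below the median level. Of 11 basophil genes measured, 3 were lower and 0 higher, with a median of -0.14. They were the cytokine receptor genes *Csf2rb2* at -0.64 and *Csf2rb* at -0.48 and the activation marker gene *Cd69* at -0.33, while *Cd200r3*, a basophil and mast cell receptor gene, had 3.58 in both arrays, well below the median level.

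Around *Hdc*, 9 other genes of histamine transport, breakdown and reception were measured. Of these, 3 were at least 1.2-fold lower and 1 higher, with a median of -0.08, beside 10.5% of all genes lower and 7.96% higher. *Maob*, an oxidase of the breakdown pathway, had -0.38. The others past the cutoff had mean levels below the median, the vesicular transporter gene *Slc18a2* at -0.40 and the receptor genes *Hrh4* at -1.13 and *Hrh1* at 0.36, and *Hnmt*, the methyltransferase that inactivates histamine, had 0.08. Around *Srgn*, 16 genes that build the glycosaminoglycan chains of proteoglycans were measured. Of these, 1 was lower and 0 higher, with a median of -0.07. That gene was the chondroitin sulfotransferase *Chst11* at -0.34. Which cells the values of these enzyme genes and of *Srgn* come from was not tested.

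Transcription factor and progenitor genes of the myeloid lineage were lower in 9 of 19 cases and higher in 0, with a median of -0.26. Among all genes, 10.5% were lower. *Spi1*, which encodes PU.1, had a log2 value of 6.65 in *Mafk*-Tg and 7.37 in WT, a difference of -0.72. *Gfi1b*, a factor of erythroid and megakaryocyte progenitors, had -0.63, and *Lmo2* had -0.46. *Gata2*, a factor of progenitors, basophils and mast cells, had 7.20 in *Mafk*-Tg and 7.54 in WT, a difference of -0.34. *Myb* had -0.34. *Cebpa* and *Cebpe*, factors of neutrophil precursors, had -0.09 and -0.20, and *Gfi1* had -0.11. The related *Cebpb* was lower, with 5.90 in *Mafk*-Tg and 6.26 in WT, a difference of -0.36.

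**Figure D3:**
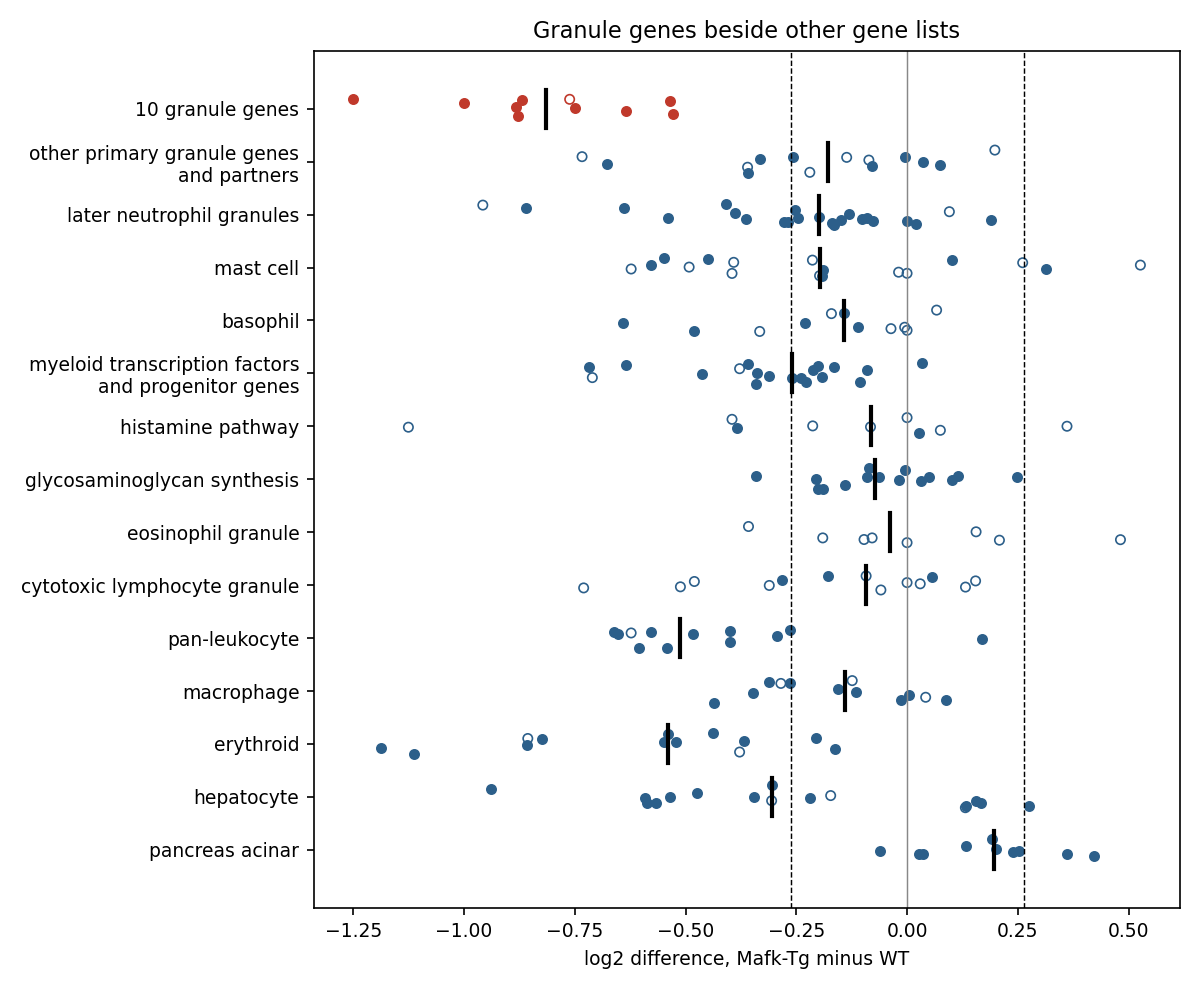
Points give the log2 difference, *Mafk*-Tg minus WT, of the measured genes of 15 lists and bars the median of a list, for 1 array per genotype, with dashed lines at 1.2-fold. Filled points lie at or above the median level and open points below it. The 10 granule genes, which were chosen for being lower, have a median of -0.82. The pan-leukocyte genes have one of -0.51 and the later neutrophil granule genes one of -0.20.

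Most pan-leukocyte and erythroid genes were lower too, and genes of other cell types in the dissected tissue less often or not at all. The part of these cells in the result was not tested. Among all genes, 10.5% were at least 1.2-fold lower and 7.96% higher. Of 12 pan-leukocyte genes, 11 were at least 1.2-fold lower and 0 higher, with a median of -0.51 and a summed linear signal of 2421 in *Mafk*-Tg and 3321 in WT. Among the 13 measured erythroid genes 11 were lower and 0 higher, with a median of -0.54 and sums of 2694 in *Mafk*-Tg and 3963 in WT. Among the 16 of hepatocytes 9 were lower and 1, *Ttr*, higher, with a median of -0.31 and sums of 5963 in *Mafk*-Tg and 6834 in WT. *Ttr*, at 10.56 in *Mafk*-Tg and 10.29 in WT, is among the brightest of the list and weighs on these sums. Of 7 genes of spleen stroma, 4 were lower and 0 higher, namely *Tlx1*, *Nkx2-5*, *Tcf21* and *Nr2f2*, with a median of -0.28 and sums of 2289 in *Mafk*-Tg and 2761 in WT. Of 12 macrophage genes, 5 were lower and 0 higher, with a median of -0.14 and sums of 1578 in *Mafk*-Tg and 1773 in WT. No marker was at 0, as array signals include background. The pancreas itself was well represented, with *Cpa1* of acinar cells at 13.51 in *Mafk*-Tg and 13.48 in WT. Of 10 acinar genes, 0 were lower and 2, *Cela3b* and *Bhlha15*, were higher, with a median of 0.20. Of 13 pancreatic endocrine genes, 2, *Ins2* and *Chga*, were lower and 8 higher, with a median of 0.28 and sums of 7699 in *Mafk*-Tg and 6545 in WT.

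The arrays also differed in sex-linked genes, with values of female embryos in *Mafk*-Tg and of male embryos in WT. *Xist* had 11.30 in *Mafk*-Tg and 4.40 in WT, and the log2 differences of the Y-linked *Eif2s3y*, *Uty* and *Kdm5d* lay between -5.68 and -3.93. Sex and genotype thus cannot be told apart in any value given here. *Mafk* itself had 6.997 in *Mafk*-Tg and 6.75 in WT, a difference of 0.247, which is under the 1.2-fold cutoff.

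The members are also given relative to the pan-leukocyte median, a scale chosen after the values had been seen that subtracts the same value from every gene. The difference was then -0.74 for *Ctsg*, -0.49 for *Mpo*, -0.37 for *Hdc*, -0.36 for *Elane* and -0.36 for *Srgn*. It was -0.25 for *Ms4a3*, -0.24 for *Mcpt8*, -0.12 for *Prtn3*, -0.02 for *Cpa3* and -0.01 for *Prss34*. On this scale 5 of 10 were at least 1.2-fold lower, as were 0.346% of all genes, and nothing is read from the count. *Cpa3* and *Prss34* thus differed by about as much as the pan-leukocyte genes in the middle of their list.

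*Ctsg* and *Mcpt8* are adjacent genes of the chymase locus on chromosome 14, which holds a family of related serine proteases of mast cells and cytotoxic lymphocytes. In RefSeq order 15 protein-coding genes run from *Cma1* to *Gzmb*. Of the 11 others with a value, 5 were at least 1.2-fold lower, *Cma1*, *Mcpt4*, *Gzme*, *Gzmc* and *Gzmb*, and 1, *Mcpt2*, was higher. The median of the 11 was -0.23, and 9 of them lay below the median level. Among all genes, 10.5% were lower. *Mcpt4*, the next gene before *Mcpt8*, had a log2 value of 4.87 in *Mafk*-Tg and 5.36 in WT. *Gzme*, the next gene after *Ctsg*, had 3.89 in *Mafk*-Tg and 4.62 in WT, far below the median level. Family members are similar in sequence, and cross-hybridisation between them was not tested.

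**Figure D4:**
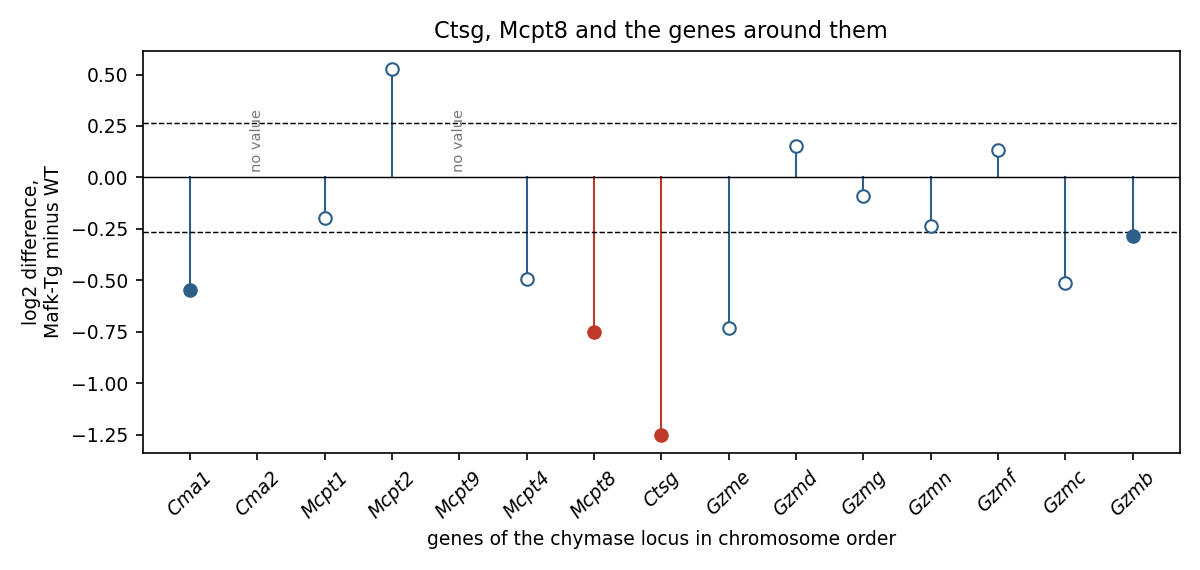
Log2 difference, *Mafk*-Tg minus WT, of the genes from *Cma1* to *Gzmb* in chromosome order, 1 array per genotype, with the granule genes *Mcpt8* and *Ctsg* in red and dashed lines at 1.2-fold. Filled points lie at or above the median level and open points below it, and *Ctsg* at -1.25 has the lowest value.

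The genes next to the 10 members on their chromosomes had differences in both directions. Of 43 different genes with a value among the 3 protein-coding neighbours on either side, 31 were within 1.2-fold, 8 were lower and 4 higher. Their median was -0.05. The 8 make up 18.6%, beside 10.5% of all genes, and are *Mcpt4*, *Gzme*, *Ms4a2*, *Ms4a4d*, *Oosp1*, *Mks1*, *Atp8b4* and *Tpsb2*. The 4 that were higher, beside 7.96% of all genes, are *Mcpt2*, *Hltf*, *Cpb1* and *Ddx50*. The neighbours of *Srgn*, *Vps26a* and *Kifbp*, had 0.05 and 0.00. Those of *Hdc*, *Slc27a2* and *Gabpb1*, had 0.03 and 0.06. Those of *Mpo*, *Tspoap1* and the lactoperoxidase gene *Lpo*, had -0.20 and 0.07. *Plppr3*, next to *Prtn3*, had -0.15. Beside *Cpa3* lies *Cpb1*, the gene of a digestive carboxypeptidase of acinar cells, with 10.52 in *Mafk*-Tg and 9.98 in WT, a difference of 0.54. So 2 related carboxypeptidase genes that lie side by side, with products of mast cells and of acinar cells, had differences of opposite sign. *Ms4a2*, next to *Ms4a3*, was lower, as given above.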

How the data were processed

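Whole E15.5 pancreata were profiled on GeneChip MoGene-1_0-st-v1 arrays. Normalization and summary per probe set were done by the authors with Affymetrix Expression Console, and the deposited values are log2 values between 0.51 and 14.01, with medians of 6.01 in both arrays. The version and algorithm of the program are not stated in the sources read, and the labels and the paper name different RNA extractions. Of 35556 probe sets, 21789 had 1 gene symbol in the platform table, 1621 had several and 12146 were unnamed here. Where a gene had several probe sets of its symbol alone, as 999 did, their log2 values were averaged, with no pseudocount, floor or further scaling. The change is *Mafk*-Tg minus WT. The number of arrays limits the precision.

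The members and gene lists were chosen with earlier results of these data known. Named were the 10 members, up to 4 genes of each list with the largest differences at or above the median level, and defining markers. *Serpinb1a*, *Hnmt*, *Cebpa*, *Gfi1* and the neighbour genes were named for their role or place, and so were, after the values had been seen, genes that make up a small count. The alternatives were equal medians, quantile normalization, loess of the difference on the mean (span 0.3), the brightest probe set, removal of probe sets under the median level, and a fold of 1.5. The scale relative to pan-leukocyte genes was added after the values had been seen. The steps were tested on simulated data. Promoter windows came from RefSeq (GRCm38.p6). Computations used Python 3.11.15 with pandas 2.3.3, numpy 2.4.6 and statsmodels 0.14.6, and figures matplotlib 3.10.9.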

Additional observations from a re-analysis of the deposited data

How the results depend on the processing

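No paired analysis was possible because each genotype has 1 array. Under equal medians, quantile normalization and loess, all 10 granule genes stayed at least 1.2-fold lower in *Mafk*-Tg. The deposited medians were already 6.01 in both arrays and the members were chosen for being lower. These scalings thus had little room to change the count, and nothing is read from it. The median of the 10 lay between -0.82 and -0.81, and the largest move of a member was 0.0318, that of *Srgn* under quantile normalization. The brightest probe set gave the same member values, since each member has 1 probe set. When probe sets under the median level were removed, *Ms4a3* was lost, and 9 of 9 were lower with a median of -0.87, where 5.9% of all genes were lower. Relative to the pan-leukocyte median, 5 of 10 were at least 1.2-fold lower, with 0.346% of all genes, and the median was -0.30, because that list's own difference is subtracted. Without replicate arrays no error between embryos can be given, and *Ms4a3* and *Prss34* lie near the median level, where the spread between genes is wider.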

Other observations

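Granule genes of other blood cells were mostly low on the scale. Beside the counts that follow, 10.5% of all genes were at least 1.2-fold lower and 7.96% higher. Of 8 eosinophil granule genes measured, 0 lay at or above the median level, and 1, *Alox15*, was at least 1.2-fold lower and 1, *Il5ra*, higher, with a median log2 difference of -0.04. *Epx*, the eosinophil peroxidase gene and a near neighbour of *Mpo*, had a log2 value of 4.72 in *Mafk*-Tg and 4.52 in WT. Of 13 genes of cytotoxic lymphocyte granules, 5 were lower, *Gzma*, *Gzmb*, *Gzmc*, *Gzme* and *Fasl*, and 0 higher, with a median of -0.09. Only *Gzmb* of the 5 lay at or above the median level. *Gzmb*, which encodes granzyme B, had 5.87 in *Mafk*-Tg and 6.15 in WT, and the perforin gene *Prf1* had 5.62 in *Mafk*-Tg and 5.68 in WT. Of 7 megakaryocyte genes, whose cells also make serglycin, 1, *Gp9*, was lower and 0 higher, with a median of -0.03. *Pf4*, the gene of a platelet granule chemokine that binds serglycin, had 6.79 in *Mafk*-Tg and 7.03 in WT. Of 9 lymphocyte genes, 4 were lower, *Cd79b*, *Pax5*, *Cd3d* and *Il7r*, and 1, *Cd3g*, was higher, with a median of -0.26.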
